A study of Rattus norvegicus with 12 samples.

Results

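The voltage-gated sodium and calcium channel genes were taken by symbol from the gene names of the deposited table: sodium channel alpha and beta subunits (Scn) and calcium channel alpha1, beta, alpha2delta and gamma subunits (Cacn), with 1 gamma subunit gene not analysed here. Of 39 genes with such a symbol, 32 reached a mean of 0.5 TPM over the 12 libraries (a transcript's level scaled to its length and to the library's total) and are the members described, 12 for sodium and 20 for calcium channels. They stand among 24540 genes tested. The libraries are polyA RNA of the periaqueductal grey of male Sprague Dawley rats. In 6 of them the animal's sire had received morphine (morphine-sired 1 to 6, spelled Moprhine-sired in the labels), and in 6 the sire had received saline (saline-sired 1 to 6). The comparison asks whether the sire's treatment left a difference in the offspring's channel RNA. The labels give no age, litter, sire, dose or batch, so p-values treat the 12 animals as independent. Groups follow the treatment label. The titles are animal numbers, mostly consecutive within a group, but 2 pairs of consecutive numbers (297 and 298, 372 and 373) fall across the groups, and shared litters cannot be told from them.

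A voltage-gated sodium channel is a single large alpha subunit that forms the pore, joined by small beta subunits that set its kinetics and its place in the membrane. A calcium channel other than the T-type is an alpha1 pore subunit with a cytoplasmic beta subunit and an extracellular alpha2delta subunit. Most gamma subunits are known better as partners of AMPA-type glutamate receptors. In the periaqueductal grey, a midbrain region of descending pain control, opioid receptors are known to inhibit presynaptic calcium channels and so transmitter release.

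No difference between morphine-sired and saline-sired rats was called for any of the 32 channel genes. The limma test over all genes called 0 of the 32 at an adjusted p under 0.05, where it called 0% of the 24540 genes. At an unadjusted p under 0.05 it held 0 of the 32, where 3.22% of all genes tested lay under that value. A limma-voom fit to reads estimated from coverage, at an inferred read length of 135 bases, also gave 0 of the 32 at both thresholds. The share of all genes in that fit is not given. The smallest unadjusted p among the 32 was 0.209 (adjusted p = 0.9998 in limma, for Cacnb4), and every channel gene had the same adjusted p of 0.9998. The groups overlapped for all 32 genes, where they did not overlap for 0.0896% of all genes tested.

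The differences were small and their intervals bound them. The log2 difference of TPM + 1, morphine-sired minus saline-sired, ran over the 32 genes from -0.28 (Cacna2d3) to 0.23 (Scn9a), with a median of -0.05, beside a median of 0.00 over all genes tested. It was below 0 for 21 of the 32 and above 0 for 11, where 50.8% of all genes tested lay below 0. This lean turned when morphine-sired 2 was left out, with a median of 0.02 and 15 of the 32 below 0, and without morphine-sired 2 and saline-sired 2, the 2 libraries high in a choroid plexus marker, with a median of 0.04 and 14 below 0. The 95% interval lay within -1 to 1, which is a 2-fold change of TPM + 1 in either direction, for all 32 channel genes and for 89.5% of all genes tested. It lay within -0.5 to 0.5 for 21 of the 32 and for 60.6% of all genes tested. The distance from the estimate to the end of its interval ran from 0.14 (Cacng7) to 0.62 (Cacna2d3), with a median of 0.31. The scale understates the change of low genes such as Scn4a and Cacng8.

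**Figure D1:**
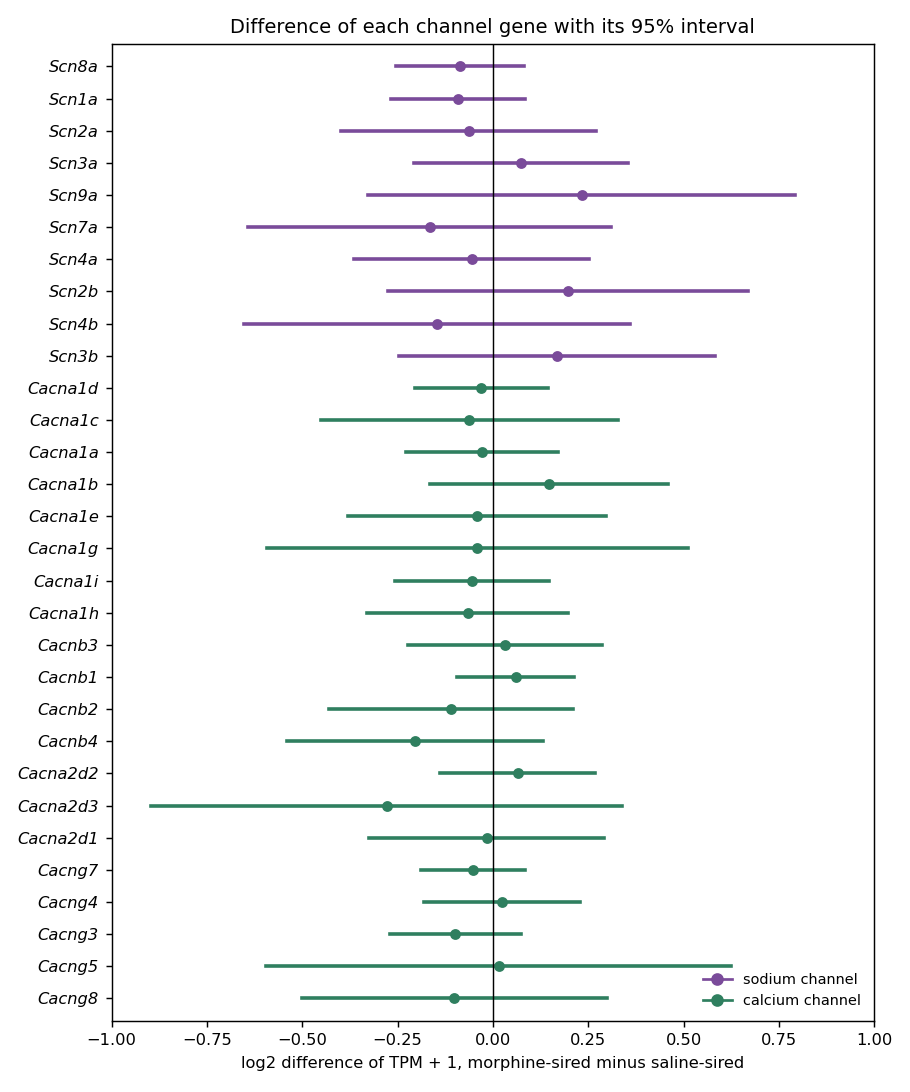
Log2 difference of TPM + 1, morphine-sired minus saline-sired, for each of 30 channel genes (points) with its 95% interval from limma (lines). Purple marks sodium and green calcium channel genes. Every interval crosses 0 and lies within -1 to 1, and the widest belongs to Cacna2d3.

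Neuronal markers were high in every library. Snap25, a synaptic vesicle fusion protein of neurons, stood at 1724 to 2079 TPM in morphine-sired and 1715 to 2090 TPM in saline-sired libraries, and the 12 neuronal markers summed to 7353 to 11069 TPM in morphine-sired and 6989 to 10083 TPM in saline-sired libraries. Depth was 4.39 to 6.03 gigabases of aligned sequence per library. Some libraries stood apart in markers of neighbouring structures. Morphine-sired 1, saline-sired 1 and saline-sired 6 held at most 0.67 TPM of Tph2, the serotonin-synthesizing enzyme of the raphe, and at most 1.15 TPM of Chat, the acetylcholine-synthesizing enzyme. The other 9 held 17.1 to 36.4 TPM of Chat. Their Tph2 ran from 1.15 to 445 TPM, with morphine-sired 4, 5 and 6 at 3.00, 3.05 and 1.15 TPM, so the 3 named libraries stood apart in Chat more than in Tph2. Not every marker listed for serotonergic or for cholinergic and motor neurons was low in these 3. Their Slc22a3 and Calca lay within the range of the other 9. Morphine-sired 2 held 1756 TPM and saline-sired 2 held 413 TPM of Ttr, the transthyretin of choroid plexus. The other listed choroid plexus markers did not all go the same way. Aqp1, Slc4a5, Kcne2 and Kl were highest in morphine-sired 2, but Folr1, Clic6 and Prlr were highest in morphine-sired 3 and Otx2 in morphine-sired 5. Saline-sired 2 also held 166 TPM of Pcp2 and 37.6 TPM of Gabra6, listed as cerebellar neuron markers, where other libraries held at most 1.89 and 0.32 TPM. Its Pvalb, also listed, was not the highest. Morphine-sired 2 also held 103 TPM of Slc6a3, a catecholamine neuron marker, where other libraries held 1.24 to 28.3 TPM. Slc18a2 and Ddc, listed for the same neurons, were highest in saline-sired 2. In tissue of this kind, fewer cells of a type and less RNA per cell cannot be told apart.

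**Figure D2:**
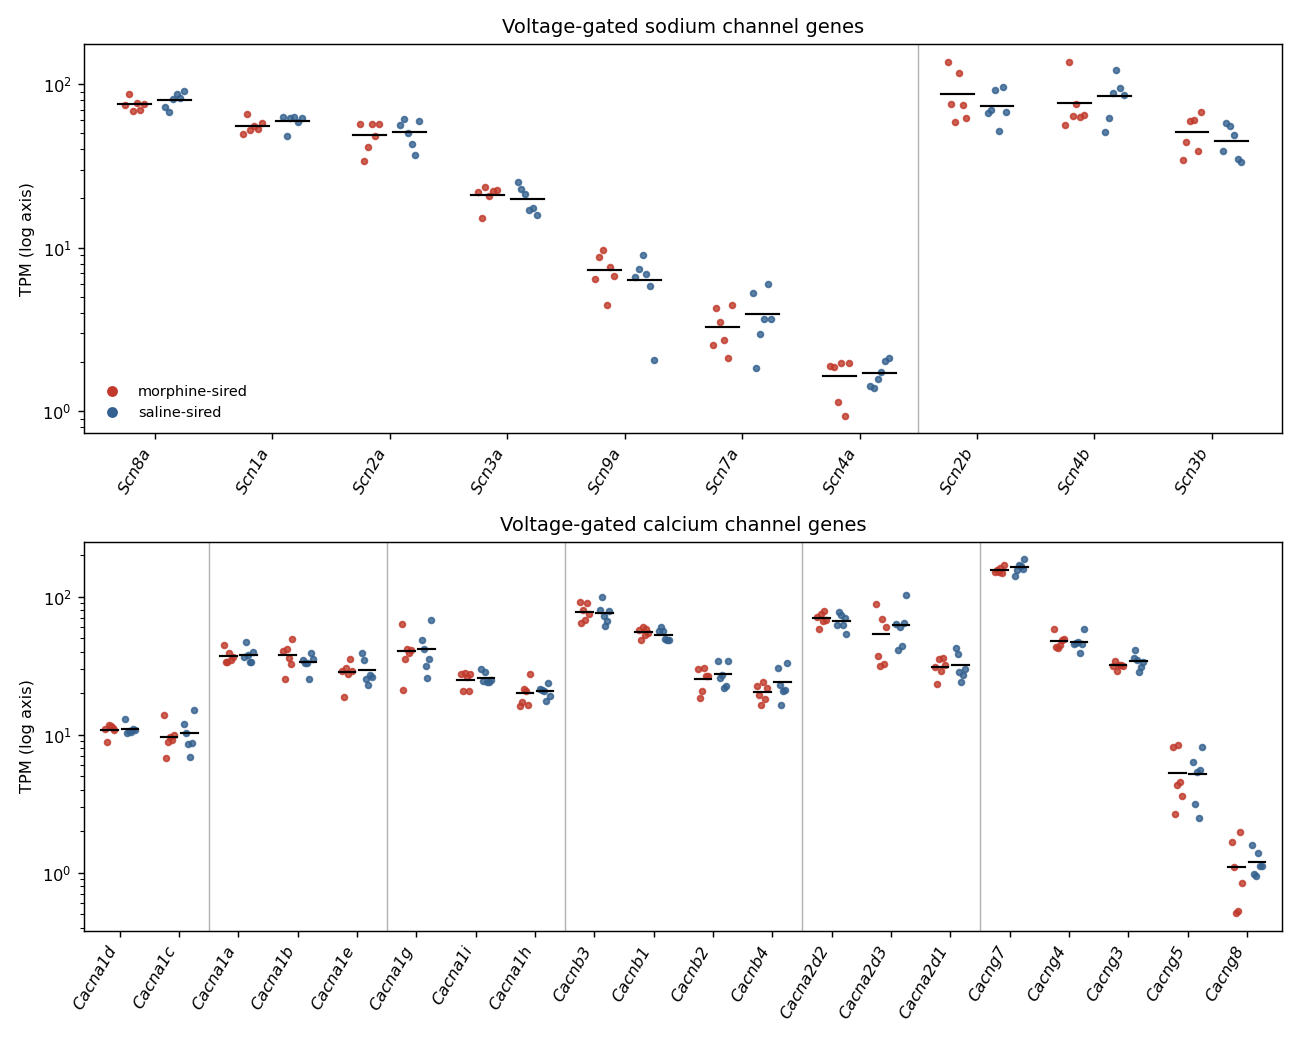
TPM on a log axis of each of 30 channel genes in each library (points), with group means (bars), morphine-sired left of saline-sired. Grey lines divide the subfamilies, in order sodium channel alpha and beta subunits above, and L-type, P/Q-, N- and R-type, T-type, beta, alpha2delta and gamma below. The groups overlap for every gene, and Cacng7 at 140 to 186 TPM is the highest shown.

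Among the sodium channel alpha subunits 3 brain forms made up most of the RNA. Scn8a, the channel of the axon initial segment and the nodes of Ranvier, led with 77.8 ± 7.72 TPM (mean ± SD, n = 12 libraries here and below). It was followed by Scn1a, known for fast-spiking interneurons, at 57.6 ± 5.80 TPM, by Scn2a, of unmyelinated and immature axons, at 50.2 ± 9.34 TPM, and by Scn3a, the form of the embryonic brain, at 20.5 ± 3.28 TPM. Scn8a held 35.7 ± 2.91% of the summed TPM of the 7 alpha subunits described, Scn1a 26.4 ± 2.1%, Scn2a 23.0 ± 3.99% and Scn3a 9.41 ± 1.66%. Scn8a lay above Scn1a and Scn2a above Scn3a in 12 of 12 libraries, whereas Scn1a lay above Scn2a in 9 of 12.

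Scn8a had a lowest, median and highest level of 69.0, 74.9 and 87.4 TPM in morphine-sired and 68.0, 81.9 and 90.7 TPM in saline-sired libraries. Scn1a had 49.8, 54.1 and 66.1 TPM in morphine-sired and 48.2, 62.3 and 62.7 TPM in saline-sired libraries. For both genes 4 or more saline-sired libraries lay above the morphine-sired median, while the highest morphine-sired library, number 2, and the lowest saline-sired library, also number 2, crossed over. The log2 difference was -0.09 ± 0.08 (SE) for Scn8a and -0.09 ± 0.08 for Scn1a (adjusted p = 0.9998 for each in limma). Those 2 libraries are the ones high in Ttr, and also in some cerebellar (saline-sired 2) and catecholamine neuron markers (morphine-sired 2). Without both, the difference was -0.20 ± 0.05 for Scn1a (unadjusted p = 0.00194, adjusted p = 0.380 in limma) and -0.18 ± 0.06 for Scn8a (unadjusted p = 0.0183, adjusted p = 0.470 in limma), in a fit where 8.86% of all genes tested lay under an unadjusted p of 0.05. Without saline-sired 2 alone, Scn1a stood at -0.15 ± 0.07 (unadjusted p = 0.0449, adjusted p = 0.993 in limma), where 4.31% of all genes tested lay under that unadjusted threshold. The part of choroid plexus or neighbouring tissue in this was not tested.

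Scn2a had a lowest, median and highest level of 33.9, 52.5 and 57.3 TPM in morphine-sired and 37.0, 53.3 and 61.2 TPM in saline-sired libraries, and the groups covered nearly one range. Scn3a averaged 21.0 ± 2.97 TPM in morphine-sired and 19.96 ± 3.78 TPM in saline-sired libraries (SD, n = 6 each here and below). Of the other alpha subunits, Scn9a, the threshold channel of nociceptors, averaged 7.27 ± 1.85 TPM in morphine-sired and 6.31 ± 2.34 TPM in saline-sired libraries and had the highest log2 difference of the 32, 0.23 ± 0.26 (adjusted p = 0.9998 in limma). Without saline-sired 6, its lowest library at 2.06 TPM, the difference was -0.00143. Scn7a, the sodium-sensing channel of glia, averaged 3.28 ± 0.97 TPM in morphine-sired and 3.90 ± 1.52 TPM in saline-sired libraries. Scn4a, the skeletal muscle channel, averaged 1.63 ± 0.46 TPM in morphine-sired and 1.71 ± 0.30 TPM in saline-sired libraries. Scn9a lay above Scn7a in 10 of 12 libraries, and Scn7a above Scn4a in 12 of 12. Scn10a and Scn11a, the channels of peripheral sensory neurons, were below the filter at means of 0.07 and 0.03 TPM.

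**Figure D3:**
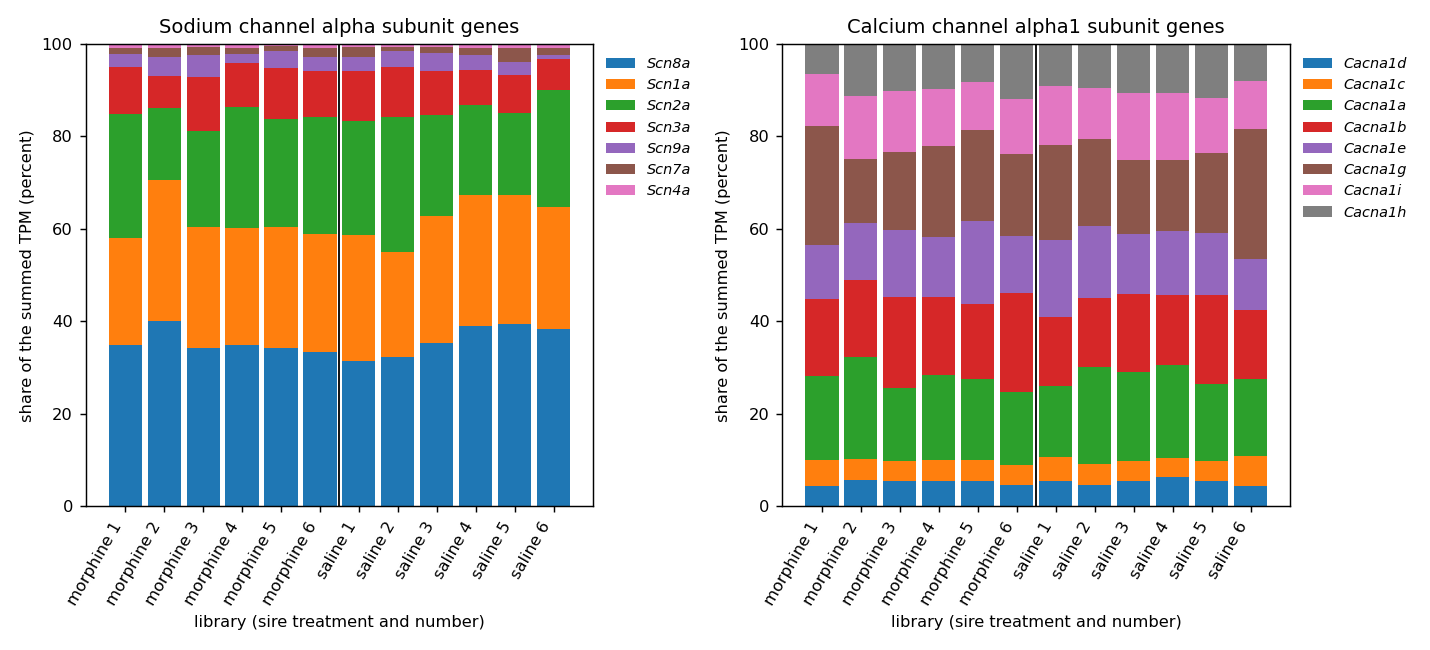
Share (percent) of each gene in the summed TPM of 7 sodium channel alpha subunits (left) and calcium channel alpha1 subunits (right) in each library, morphine-sired 1 to 6 left of the black line and saline-sired 1 to 6 right of it. Scn8a, Scn1a and Scn2a fill most of each left bar, and Cacna1g takes its largest shares in morphine-sired 1 and saline-sired 6.

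The genes lie in clusters in the genome (Rnor_6.0, span of the deposited transcript models). Scn3a, Scn2a, Scn1a, Scn9a and Scn7a lie in a row on chromosome 3 from 51532627 to 52877316, and their mean levels ran from 3.59 TPM (Scn7a) to 57.6 TPM (Scn1a). Scn8a lies apart from this row, on chromosome 7 from 142575672 to 142688439. Cacnb3 and Cacna1i also lie on chromosome 7.

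The promoters of these genes differ in base composition, shown for 2 of the main brain alpha subunits and for Scn2b. Scn2b was the least CpG-rich of the abundant members for which a promoter window was found. RefSeq windows of the build GRCr8, from 250 bases before to 50 bases after the gene's start, were found for 21 of the 32 members. The sequences below run 5′ to 3′ with every CpG in capitals. A CpG reads the same on both strands, and the windows cover the 300 bases given and nothing beyond.

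Scn8a, chr7:133860977-133861276, plus strand: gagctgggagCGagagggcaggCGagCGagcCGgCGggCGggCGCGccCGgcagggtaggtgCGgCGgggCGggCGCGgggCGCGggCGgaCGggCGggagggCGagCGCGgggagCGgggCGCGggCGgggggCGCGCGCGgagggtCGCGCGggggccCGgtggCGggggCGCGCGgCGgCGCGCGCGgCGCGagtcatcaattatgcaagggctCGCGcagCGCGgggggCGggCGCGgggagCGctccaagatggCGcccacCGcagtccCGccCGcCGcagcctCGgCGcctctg
Scn2a, chr3:70710706-70711005, plus strand: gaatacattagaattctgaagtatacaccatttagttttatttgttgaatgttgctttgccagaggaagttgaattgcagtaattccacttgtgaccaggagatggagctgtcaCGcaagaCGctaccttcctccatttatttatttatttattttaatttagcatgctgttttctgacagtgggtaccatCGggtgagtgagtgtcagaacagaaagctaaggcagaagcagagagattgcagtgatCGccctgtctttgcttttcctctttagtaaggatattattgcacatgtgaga
Scn2b, chr8:54322133-54322432, plus strand: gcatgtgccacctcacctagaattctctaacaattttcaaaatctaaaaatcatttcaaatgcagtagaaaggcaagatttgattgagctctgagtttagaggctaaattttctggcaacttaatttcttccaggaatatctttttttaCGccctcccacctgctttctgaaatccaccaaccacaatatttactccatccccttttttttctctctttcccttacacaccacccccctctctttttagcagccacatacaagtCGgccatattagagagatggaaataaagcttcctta

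The Scn8a window held 60 CpG at 84.7% G + C, and 99.97% of the 33469 windows in the RefSeq table held as many or fewer. The Scn2a window held 4 CpG at 39.3% G + C and the Scn2b window 2 CpG at 39.0% G + C, below the median of 7 over all windows. The Cacna1d window held the most of any member with a window, 66. Levels did not follow this count in order: Scn2b stood at 80.7 TPM with 2 CpG, Scn8a at 77.8 TPM with 60 and Cacna1d at 11.0 TPM with 66. RefSeq's start need not be the start used in this tissue.

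Of the sodium channel beta subunits, Scn2b had 80.7 ± 25.5 TPM, Scn4b 80.4 ± 26.6 TPM and Scn3b 47.9 ± 12.0 TPM over all 12 libraries (SD). Scn2b lay above Scn4b in 7 of 12 libraries, so their order was not fixed, and Scn4b lay above Scn3b in 11 of 12. Scn2b, which is linked to alpha subunits by a disulfide bond and raises their surface level, had a lowest, median and highest level of 58.4, 75.0 and 137 TPM in morphine-sired and 51.8, 68.3 and 96.4 TPM in saline-sired libraries. Morphine-sired 1 at 137 TPM and morphine-sired 4 at 117 TPM stood above every saline-sired library, and the other 4 lay among them. The log2 difference was 0.20 ± 0.22 (adjusted p = 0.9998 in limma). It was 0.05 without morphine-sired 1, 0.0998 without morphine-sired 4 and 0.103 without saline-sired 4, and its sign turned to -0.00192 without the 3 libraries low in Tph2 and Chat and to -0.07 with annotated transcripts only. Scn4b, the subunit of resurgent sodium current, had a lowest, median and highest level of 56.3, 64.2 and 137 TPM in morphine-sired and 51.3, 87.6 and 121 TPM in saline-sired libraries. It was highest in morphine-sired 2 and saline-sired 4, the libraries that also held the most Pvalb, a calcium buffer of fast-spiking neurons, at 555 and 521 TPM, and the most oligodendrocyte marker RNA, with sums of 21195 and 17265 TPM. The part of tissue makeup in this was not tested. Scn3b, which slows inactivation, averaged 50.9 ± 13.5 TPM in morphine-sired and 44.9 ± 10.7 TPM in saline-sired libraries.

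Among the calcium channel alpha1 subunits no gene dominated. Cacna1g, a T-type pore known for burst firing of thalamic neurons, had 41.0 ± 13.6 TPM, Cacna1a, the P/Q-type pore of fast transmitter release, 37.6 ± 4.43 TPM, and Cacna1b, the N-type pore through which opioids inhibit release, 35.5 ± 6.72 TPM. Their shares of the summed alpha1 TPM were 19.2 ± 4.17%, 18.1 ± 2.17% and 16.9 ± 2.1%. Neighbours in the order were not separated: Cacna1g lay above Cacna1a in 8 of 12 libraries, Cacna1a above Cacna1b in 9 and Cacna1b above Cacna1e in 9. Cacna1h lay above Cacna1d in all 12.

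Of the L-type pores, which couple calcium entry to gene expression and pacemaking, Cacna1d had a lowest, median and highest level of 8.80, 11.0 and 11.8 TPM in morphine-sired and 10.3, 10.7 and 13.1 TPM in saline-sired libraries. Cacna1c had 6.75, 9.37 and 13.8 TPM in morphine-sired and 6.89, 9.47 and 15.2 TPM in saline-sired libraries. Medians of both genes were close, with log2 differences of -0.03 ± 0.08 and -0.06 ± 0.18. On annotated transcripts alone, which hold a mean of 1.15 of its 9.98 TPM, Cacna1c had 0.518 ± 0.523 TPM in morphine-sired and 1.79 ± 1.31 TPM in saline-sired libraries, a log2 difference of -0.79 ± 0.35 (unadjusted p = 0.0441, adjusted p = 0.9995 in limma), in a fit where 3.53% of all genes lay under an unadjusted p of 0.05. Cacna1f, the retinal channel, and Cacna1s, the skeletal muscle channel, were below the filter at 0.06 and 0.01 TPM.

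Of the presynaptic pores, Cacna1a had a lowest, median and highest level of 33.6, 35.7 and 44.8 TPM in morphine-sired and 33.4, 37.0 and 46.6 TPM in saline-sired libraries. Cacna1b had 25.3, 38.4 and 49.2 TPM in morphine-sired and 25.2, 34.0 and 39.0 TPM in saline-sired libraries. For Cacna1b, 3 morphine-sired libraries lay above every saline-sired one and the lowest of each group were nearly equal, and the log2 difference was 0.15 ± 0.14 (adjusted p = 0.9998 in limma). The limma-voom fit turned the sign of Cacna1b to -0.04. Its annotated transcripts held 0.01 TPM, so nearly all of its level rests on transcripts assembled in the series. Cacna1e, the R-type pore, averaged 28.4 ± 5.51 TPM in morphine-sired and 29.3 ± 6.42 TPM in saline-sired libraries.

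The T-type pores, which open near the resting potential, varied between libraries more than between groups. Cacna1g had a lowest, median and highest level of 21.1, 40.2 and 63.5 TPM in morphine-sired and 25.7, 38.4 and 67.3 TPM in saline-sired libraries, with a log2 difference of -0.04 ± 0.25. Its highest libraries were morphine-sired 1 at 63.5 TPM, and saline-sired 1 and 6 at 48.4 and 67.3 TPM, and the other 9 lay at 21.1 to 41.9 TPM. These 3 are the libraries nearly without Tph2 and Chat, and they held 91.5 to 151 TPM of Tcf7l2, a transcription factor of thalamic and collicular neurons, where the other 9 held 7.58 to 109 TPM. The listed markers of such neurons did not all go the same way. Lef1 and Rora were higher in these 3 than in any other library, but Pou4f1 was lower (3.17 to 3.78 against 4.54 to 12.6 TPM). The 7 listed markers summed to 897 to 1351 TPM in these 3 and to 924 to 1269 TPM in the other 9. Cacna1c was also higher in these 3 (12.0 to 15.2 TPM) than in any other library (6.75 to 10.2 TPM), which was so for 2.76% of all genes tested. The part of tissue makeup in this was not tested, and without the 3 libraries the log2 difference of Cacna1g was 0.08 (adjusted p = 1.0 in limma). Cacna1i had 20.6, 26.8 and 27.8 TPM in morphine-sired and 24.0, 24.7 and 29.8 TPM in saline-sired libraries, so the groups overlapped from 24.0 to 27.8 TPM. Cacna1h, the T-type pore of nociceptors, averaged 19.9 ± 4.35 TPM in morphine-sired and 20.6 ± 2.11 TPM in saline-sired libraries.

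**Figure D4:**
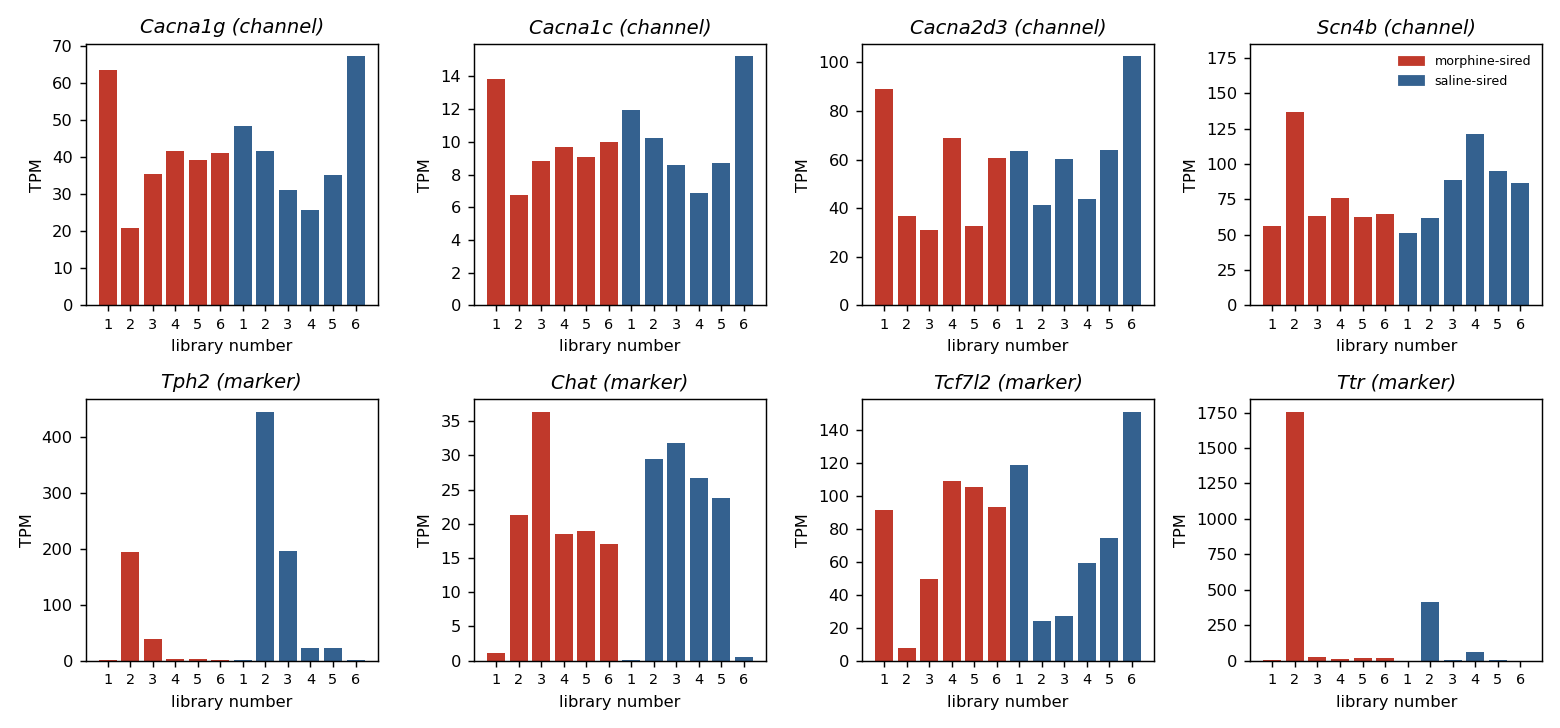
TPM in each library of 4 channel genes (top: Cacna1g, Cacna1c, Cacna2d3 and Scn4b) and 4 marker genes (bottom: Tph2, Chat, Tcf7l2 and Ttr), morphine-sired 1 to 6 left of saline-sired 1 to 6. Cacna1g and Cacna1c are highest in morphine-sired 1, saline-sired 1 and saline-sired 6, where Tph2 and Chat are near 0.

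The cytoplasmic beta subunits, which carry the pore to the membrane, were led by Cacnb3 and Cacnb1. Cacnb3 had a lowest, median and highest level of 64.7, 76.9 and 91.4 TPM in morphine-sired and 61.1, 75.8 and 99.0 TPM in saline-sired libraries. Cacnb1 had 48.4, 56.1 and 60.3 TPM in morphine-sired and 48.3, 52.6 and 60.4 TPM in saline-sired libraries, the narrowest spread of any member at 1.25-fold from the lowest to the highest library. Cacnb3 lay above Cacnb1, and Cacnb1 above Cacnb2, in 12 of 12 libraries. Cacnb4, whose loss causes ataxia and seizures in mice, averaged 20.4 ± 2.93 TPM in morphine-sired and 24.2 ± 6.29 TPM in saline-sired libraries. Its log2 difference of -0.20 ± 0.15 had the smallest p of the 32. Saline-sired 1 and 6, at 30.6 and 32.9 TPM, were the only libraries above 24.3 TPM. The difference was -0.11 without saline-sired 6, -0.13 without saline-sired 1, -0.02 without those and morphine-sired 1, the 3 libraries low in Tph2 and Chat, and 0.02 with annotated transcripts only, where its sign turned. Cacnb2, also a cardiac subunit, averaged 25.4 ± 4.8 TPM in morphine-sired and 27.5 ± 5.51 TPM in saline-sired libraries.

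The alpha2delta subunits raise the number of channels at release sites, and those of Cacna2d1 and Cacna2d2 bind gabapentin. Cacna2d2 had a lowest, median and highest level of 57.8, 69.7 and 78.8 TPM in morphine-sired and 53.8, 66.0 and 77.8 TPM in saline-sired libraries. Cacna2d3 had 31.2, 48.7 and 88.9 TPM in morphine-sired and 41.4, 62.0 and 102 TPM in saline-sired libraries. The Cacna2d3 groups overlapped widely, with 3 morphine-sired libraries below every saline-sired one, and the log2 difference of -0.28 ± 0.28 was the lowest of the 32 (adjusted p = 0.9998 in limma). It ran from -0.46 without saline-sired 4 and morphine-sired 4 to -0.13 without saline-sired 6. The level of Cacna2d3 varied 3.28-fold between libraries and was highest in morphine-sired 1 and saline-sired 6, both nearly without Tph2 and Chat. Saline-sired 1, the other such library, stood at 63.7 TPM, below morphine-sired 4 at 69.1 TPM and saline-sired 5 at 64.2 TPM. Cacna2d1 averaged 31.1 ± 4.68 TPM in morphine-sired and 31.7 ± 7.11 TPM in saline-sired libraries. Cacna2d4, a retinal subunit, was below the filter at 0.21 TPM.

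Of the gamma subunits, Cacng7 led with 160 ± 12.2 TPM and the lowest relative spread of any member, 7.65% of its mean. It had a lowest, median and highest level of 149, 154 and 171 TPM in morphine-sired and 140, 162 and 186 TPM in saline-sired libraries. Cacng4 had 42.2, 46.7 and 57.9 TPM in morphine-sired and 39.4, 45.7 and 58.5 TPM in saline-sired libraries. The saline-sired range enclosed the morphine-sired range for both. Cacng3 averaged 31.7 ± 1.74 TPM in morphine-sired and 34.2 ± 4.37 TPM in saline-sired libraries, and Cacng5 averaged 5.27 ± 2.40 TPM in morphine-sired and 5.16 ± 2.08 TPM in saline-sired libraries. These genes encode auxiliary subunits of AMPA receptors, and Cacng7, Cacng4, Cacng3, Cacng5 and Cacng8 kept this order in 12 of 12 libraries. Cacng8 averaged 1.10 ± 0.60 TPM in morphine-sired and 1.19 ± 0.25 TPM in saline-sired libraries on its annotated transcript. Its locus is shared with a microRNA gene, and with the assembled transcripts of the locus given to it the level was 19.3 ± 3.63 TPM in morphine-sired and 18.6 ± 2.94 TPM in saline-sired libraries, which would place it above Cacng5. Cacng1, the skeletal muscle gamma subunit, and Cacng6 were below the filter at 0.11 and 0.09 TPM.

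The spread between animals of 1 group was wider for the channel genes than for the median gene of like level, which is given with no test. For the 23 members between 10 and 100 TPM, the SD of log2(TPM + 1) within groups had a median of 0.24, beside a median of 0.16 over all 9051 genes in that range. Among these 23 it was lowest for Cacnb1 (0.12) and highest for Cacna2d3 (0.55), and Cacna2d3 exceeded 84.4% of all genes tested.

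Genes that bind or anchor these channels were described in the same fit. Of the sodium channel partners (ankyrins, fibroblast growth factor homologous factors, sodium leak channel units and others), 25 genes were tested and 0 lay under an unadjusted p of 0.05, where 3.22% of all genes tested did. Their median log2 difference was -0.02, with 8 above 0 and 17 below, where 50.8% of all genes tested lay below 0. The smallest p values belonged to Ank2, Unc79 and Fgf14. Ank2, an ankyrin of axons, averaged 280 ± 10.0 TPM in morphine-sired and 294 ± 10.6 TPM in saline-sired libraries, a log2 difference of -0.07 ± 0.04. Unc79, of the sodium leak channel, averaged 3.37 ± 4.69 TPM in morphine-sired and 5.81 ± 5.31 TPM in saline-sired libraries on its annotated transcripts, which is not its full level, since its locus holds a second annotated gene and the assembled transcripts there were not given to it. Fgf14, which binds sodium channels at the initial segment, averaged 11.0 ± 1.41 TPM in morphine-sired and 12.2 ± 2.66 TPM in saline-sired libraries.

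Of the calcium channel partners (release site scaffolds, small G proteins, calmodulin and calcium-activated potassium channels), 32 genes were tested and 1 lay under an unadjusted p of 0.05, near the 3.22% of all genes tested. It was Kcnma1, the calcium-activated potassium channel, at 2.37 ± 1.95 TPM in morphine-sired and 0.08 ± 0.12 TPM in saline-sired libraries (unadjusted p = 0.00218, adjusted p = 0.9998 in limma). Its locus holds a second annotated gene and the assembled transcripts there were not given to it, so this is not its full level. Rrad and Gem, small G proteins that inhibit calcium channels, averaged 7.74 ± 0.85 and 4.53 ± 0.66 TPM in morphine-sired libraries, against 6.81 ± 0.57 and 5.29 ± 1.14 TPM in saline-sired libraries. The median log2 difference of the list was -0.02, with 13 above 0 and 19 below, beside the same 50.8% below 0 over all genes tested.

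Single transcripts of the channel genes varied more than the genes did. Of 152 transcripts of the 32 genes at a mean of at least 0.5 TPM, 10 (6.58%) lay under an unadjusted p of 0.05, where 3.77% of the 50419 transcripts tested did, and 0 of the 152 were called at an adjusted p under 0.05, where 0.00198% of all transcripts were. The 6 with the smallest p were assembled models of Cacna1b, Scn3a, Cacnb4 and Cacna2d2. A Cacna1b model of 11 exons and 5632 bases (chromosome 3, 1740056 to 1779955) stood at 16.0, 0.62, 18.4, 17.2, 3.95 and 20.2 TPM in morphine-sired 1 to 6, and at 1.02, 1.35, 0.60, 0.34, 0.51 and 0.74 TPM in saline-sired 1 to 6. It was high in 5 of 6 morphine-sired libraries and low in all saline-sired ones, a log2 difference of 2.54 ± 0.58 (adjusted p = 1.0 in limma), while the level of the whole gene showed 0.15 ± 0.14.

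The other 5 came in opposed pairs or alone. Of 2 Scn3a models with 26 exons that differ by 4 bases in length, the one of 5869 bases averaged 0.870 ± 0.996 TPM in morphine-sired and 2.60 ± 0.52 TPM in saline-sired libraries, and the one of 5865 bases averaged 1.70 ± 0.93 TPM in morphine-sired and 0.237 ± 0.581 TPM in saline-sired libraries. Of 2 Cacnb4 models, the one of 14 exons and 8447 bases averaged 1.68 ± 2.86 TPM in morphine-sired and 8.75 ± 4.60 TPM in saline-sired libraries. The one of 13 exons averaged 5.31 ± 4.92 TPM in morphine-sired and 0.292 ± 0.716 TPM in saline-sired libraries. Models of like exon number did not all go the same way. Another Cacnb4 model of 14 exons, with 8131 bases, averaged 6.51 ± 6.01 TPM in morphine-sired and 0.67 ± 1.62 TPM in saline-sired libraries. Those of 14 exons with 8689 and 8582 bases had lower means in morphine-sired libraries. Another Scn3a model of 26 exons and 5865 bases averaged 3.15 ± 0.86 TPM in morphine-sired and 3.86 ± 1.27 TPM in saline-sired libraries. A Cacna2d2 model of 5062 bases averaged 1.23 ± 0.79 TPM in morphine-sired and 3.23 ± 1.46 TPM in saline-sired libraries. The program that made these values divides reads between overlapping models of a gene, so a difference between near-identical models is uncertain, and several of these models were listed at 0 in part of the libraries.

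The files also give the read coverage of each exon, which was summed over all models of a gene. For an exon that some models skip, the share is its coverage as a percent of the mean coverage of the exons on both sides. For a pair of exons used in turn, it is the upstream copy's percent of the coverage of both. With a coverage of at least 10 in every library, 31 such choices in 15 channel genes were tested among 5516 in all genes, 6 pairs and 25 skipped exons.

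In Scn2a and Scn3a the pair of 92-base exons is known as the neonatal and the adult copy of a voltage sensor segment, with the neonatal copy upstream. The neonatal copy of Scn2a (chromosome 3, 51749838 to 51749929) held 1.56 ± 1.29% in morphine-sired and 1.78 ± 1.44% in saline-sired libraries, so the adult copy made up nearly all of it in every animal. In Scn3a (chromosome 3, 51602120 to 51602211) it held 11.7, 24.9, 8.92, 21.0, 20.7 and 15.9% in morphine-sired 1 to 6, and 9.05, 1.63, 3.74, 28.8, 2.1 and 4.86% in saline-sired 1 to 6. In Scn3a 5 saline-sired libraries lay below or near the lowest morphine-sired one and the remaining saline-sired library was the highest of all, a difference of 8.81 ± 4.57 percentage points (adjusted p = 1.0 in limma).

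In Scn8a an exon of 123 bases (chromosome 7, 142667180 to 142667302) was covered at 63.8, 66.4, 71.3, 62.0, 62.2 and 61.8% of its neighbours in morphine-sired 1 to 6, and at 69.6, 63.9, 75.8, 80.2, 74.1 and 77.4% in saline-sired 1 to 6. Of the saline-sired libraries 4 lay above every morphine-sired one, and saline-sired 1 and 2 lay among the morphine-sired ones. The difference was -8.88 ± 3.29 percentage points, with an unadjusted p of 0.0198 and an adjusted p of 1.0 in limma. Neighbouring exons had a coverage of 133 to 195. The transcript values put 6.76% of the TPM in models that contain this exon, since the abundant assembled model of Scn8a lacks it, whereas the exon was covered at 69.1 ± 6.60% of its neighbours (n = 12).

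Such gaps between coverage and models of over 20 percentage points were found for 13 of the 31 choices. In Cacna1a the upstream copy of a pair of 97-base exons held 87.6 ± 4.07% in morphine-sired and 85.3 ± 6.51% in saline-sired libraries by coverage, close to 93.6% by the models. The corresponding 97-base pair of Cacna1e held 31.8 ± 11.7% upstream in morphine-sired and 30.8 ± 10.1% in saline-sired libraries by coverage, but 2.07% by the models. A pair of 87-base exons of Cacna2d1 held 56.6 ± 6.34% upstream in morphine-sired and 50.5 ± 10.6% in saline-sired libraries by coverage, and 16.9% by the models. A 282-base exon of Scn1a was covered at 81.4 ± 7.38% of its neighbours in morphine-sired and 84.7 ± 5.14% in saline-sired libraries.

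Of the 31 choices, 3 (9.68%) lay under an unadjusted p of 0.05, where 3.97% of the 5516 did, and 0 were called at an adjusted p under 0.05, where 0% were. Beside the Scn8a exon they were a 60-base exon of Cacna2d1 and a 71-base exon of Cacna1g. The Cacna2d1 exon was covered at 99.2 ± 7.46% of its neighbours in morphine-sired and 85.4 ± 7.98% in saline-sired libraries, a difference of 13.8 ± 4.65 points (unadjusted p = 0.0118, adjusted p = 1.0 in limma). The Cacna1g exon was covered at 133 ± 5.14% in morphine-sired and 124 ± 4.24% in saline-sired libraries, a difference of 9.58 ± 3.52 points (unadjusted p = 0.0189, adjusted p = 1.0 in limma). Here every morphine-sired library (128.1 to 143%) lay above every saline-sired one (117 to 127.8%), by a narrow margin. The groups did not overlap, in either direction, for 0.127% of all choices tested. A share over 100% shows that coverage along the gene is uneven, so these percentages are not exact inclusion rates. The coverage of 1 exon also varies with the reads of a library, and no interval for that could be given.

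**Figure D5:**
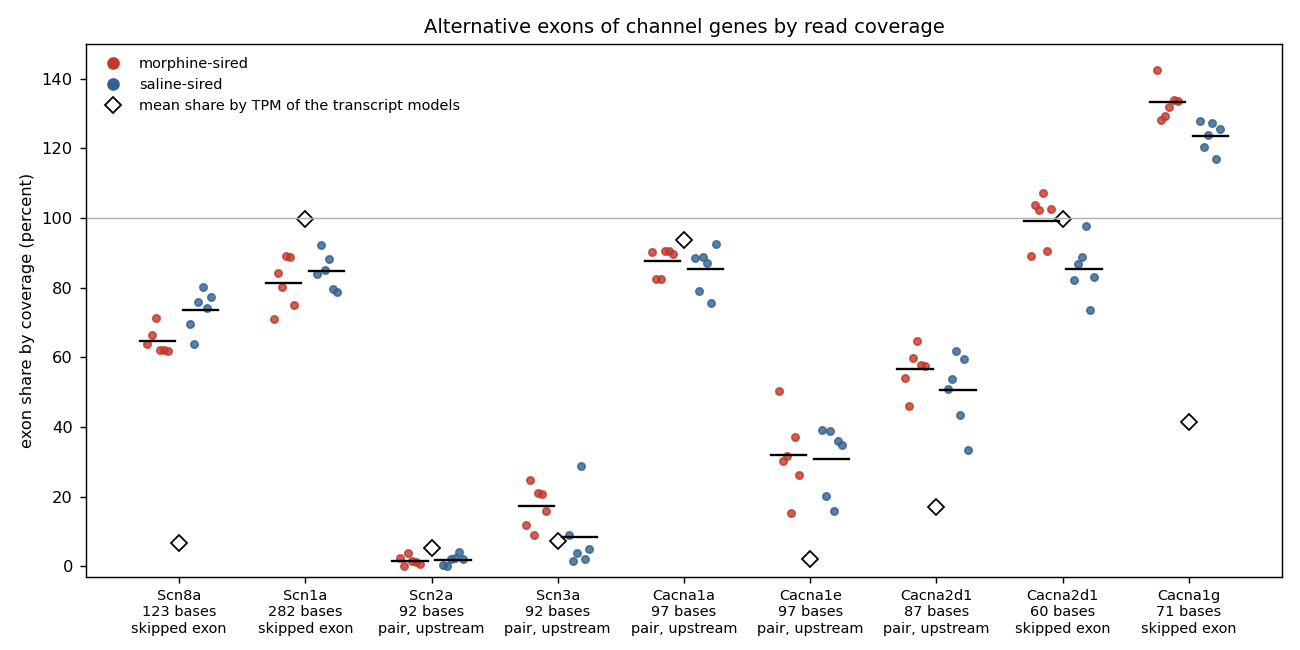
Exon share by read coverage (percent) for 9 alternative exons of channel genes in each library (points, with group means as bars), morphine-sired left of saline-sired. Diamonds give the mean share by TPM of the transcript models over all libraries. Diamonds lie far from the points for Scn8a, Cacna1e, Cacna2d1 (87 bases) and Cacna1g, and the Cacna1g groups do not overlap.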

How the data were processed

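Polyadenylated RNA of 12 libraries was analysed. The authors' deposited transcript files give TPM and coverage (mean read depth per base) for 76232 transcripts, 41063 annotated and 35169 assembled in the series. Per the file headers they were written by StringTie 1.3.6, and the submitters' processing notes name HISAT2 2.2.0, StringTie 2.1.2 and the build Rnor_6.0. The authors' deposited log2 table was used for its gene names. The sources used here do not say whether reads were stranded.

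TPM was summed over the transcripts of a locus with 1 symbol, and assembled transcripts went to that symbol where the locus has only 1. Genes averaging 0.5 TPM or more entered the test on log2(TPM + 1), with a pseudocount of 1, with limma 3.58.1 in R 4.3.3 (intensity trend, two-sided, Benjamini-Hochberg adjusted over all genes). Transcripts and exon shares were tested likewise, exon shares after their values were seen. The gene and exon tests were tried on simulated data with 200 known changes. The gene test recovered 38.5% of 1.5-fold, 75.0% of 2-fold and 96.0% of 4-fold changes of TPM + 1. The exon test recovered 46.5% of changes of 20 points. Read numbers are unknown, and depth was taken as aligned bases from the ratio of coverage to FPKM in the deposited files.

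All 32 members enter the counts, 30 are described, and 2 are not reported here. Those described with the highest 2 means in each subfamily have values per library, and partner lists give their 3 smallest p. Members and lists were chosen with earlier results of these data known. Exons, promoters and the other libraries' values named were chosen after their values were seen.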

Additional observations from a re-analysis of the deposited data

Results flagged for a closer look

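In 64 groups of 6 values (32 genes in 2 groups of rats), a library stood far from the other 5 of its group for 5 channel genes, in 6 groups. The rule is set to flag about 1 group in 20 of independent values, and the share over all genes is not given. The groups share libraries and are not independent, so the count is not read as an excess. Scn4b was at 136.7 TPM in morphine-sired 2, with the other morphine-sired libraries at 56.3 to 75.8 TPM. In the same library Scn3a was at 15.17 TPM (others 20.6 to 23.4 TPM) and Cacna1d at 8.8 TPM (others 10.8 to 11.8 TPM), and this library also held the most Ttr and the largest oligodendrocyte marker sum. Their part in these values was not tested. Scn1a was at 48.16 TPM in saline-sired 2, with the others at 58.8 to 62.7 TPM. Cacna1d was at 13.08 TPM in saline-sired 1 (others 10.3 to 11.0 TPM), and Cacna2d3 at 102.5 TPM in saline-sired 6 (others 41.4 to 64.2 TPM). Among exon shares, the neonatal copy of Scn3a made up 28.84% of its pair in saline-sired 4, where the other saline-sired libraries held 1.63 to 9.05%.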

How the results depend on the processing

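No paired analysis was possible because the labels give no replicate numbers that link animals of both groups. No channel gene reached an adjusted p under 0.05 under any of the 25 alternatives, and 65 of 796 channel gene differences turned sign, 9 of them with annotated transcripts only. The count of channel genes at an unadjusted p under 0.05 was 0 in the reported fit. It was 1 with annotated transcripts only (Cacna1c) and 2 without the 2 libraries high in Ttr (Scn1a and Scn8a). It ran from 0 to 1 when 1 library was left out (1 without saline-sired 2, Scn1a). The count of genes called over all genes tested, 0, was 1 without the 3 libraries low in Tph2 and Chat. It ran from 0 to 1 when 1 library was left out (1 without saline-sired 4 or saline-sired 6). At a mean of at least 3 TPM, 5 channel transcripts of 71 lay under an unadjusted p of 0.05. The share of all transcripts in that fit is not given, so the count is not read as an excess. Exon choices of channel genes under an unadjusted p of 0.05 ran from 3 to 5 when 1 library was left out. That count too has no share of all choices beside it. In the same fits the Scn8a exon difference ran from -10.8 to -7.54 points. Without the 3 libraries low in Tph2 and Chat, its unadjusted p in limma was 0.0681. These exon alternatives, the Cacng8 locus and the next were added after the data were seen. Levels computed per longest model summed to 206.6 TPM for 7 sodium channel alpha subunits (reported 218.1), 78.7 for Cacna1a, Cacna1b and Cacna1e (reported 101.9) and 141.9 for calcium channel beta subunits (reported 180.2), and put Cacnb2 below Cacnb4 and lowered Scn3b to 26.9 TPM. The causes were not tested. Depth limits the low genes most.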
